A study of Mus musculus with 8 samples.

Results

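The mRNAs of the subunits of oxidative phosphorylation were followed in mouse liver, complex by complex. Members were chosen by name among the protein-coding genes: the numbered Nduf subunit genes, Sdha to Sdhd, the Uqcr genes, Cyc1, the Cox4 to Cox8 genes, the Atp5 genes and the 13 proteins encoded by mitochondrial DNA. The rule left out Cox6a2, Cox7a1 and Cox8b, isoforms of muscle and brown fat. It used no measured value. It gave 100 of the 56884 genes in the count tables, with 44 in complex I, 4 in complex II, 10 in complex III, 21 in complex IV and 21 in complex V. Of the 100 members, 89 passed the filter on low counts and were tested, and the other 11 are accounted for by name below.

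Oxidative phosphorylation is carried out in the inner mitochondrial membrane. Complexes I and II pass electrons from NADH and succinate to coenzyme Q, complex III passes them on to cytochrome c, and complex IV passes them to oxygen. Complexes I, III and IV pump protons, and complex V, the ATP synthase, uses the proton gradient to make ATP. The subunits of complex II are all encoded in the nucleus, while each of the other complexes also has subunits made from mitochondrial DNA. In the liver the system supplies ATP for processes such as glucose and urea synthesis and takes up the electrons released by fatty acid oxidation.

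The study compared liver RNA of aged obese female C57BL/6J mice fed with or without docosahexaenoic acid (DHA), an n-3 fatty acid, to describe the hepatic transcriptome of long-term supplementation. All mice were made obese by a high-fat diet (lipids gave 45% of the energy) from the age of 2 months and for 4 months. The DIO group (3 mice, replicates 1, 4 and 5) then stayed on that diet up to 18 months of age, and the DIO + DHA group (5 mice, replicates 1, 2, 4, 5 and 6) received it with 15% of the dietary lipids, by weight, replaced by a concentrate of fish oil that holds 683.4 mg of DHA and 46.7 mg of eicosapentaenoic acid per g. Both diets held tocopherols, both groups were fasted overnight before sacrifice, and no lean group was analysed here. Each library came from 1 mouse, and the labels put all libraries in 1 batch.

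The libraries held 1723800 to 5690347 counts, and DIO replicate 1 was the shallowest. Levels are in CPM, which are counts per 1000000 counts of a library after TMM scaling. Because the libraries are enriched in 3′ ends and CPM is not divided by length, levels of different genes are not compared. Liver markers were high in every library (Alb, Ttr, Apoa1, Cps1 and Serpina1c summed to 75978 to 93953 CPM). The 24 listed skeletal muscle genes summed to 45.7 to 53.9 CPM in the DIO group and 1495 to 1641 CPM in the DIO + DHA group, and all 23 that were tested were higher. The 7 listed brown fat genes summed to 24.4 to 28.6 CPM and 124 to 150 CPM, with 5 of 5 tested genes higher, and Dio2 and Otop1 were too low to be tested. Casq1, Mb, Ucp1, Krt13 and Lgals7 had 0 counts in each DIO library. The 6 stratified epithelium genes summed to at most 0.180 CPM in the DIO group and 47.5 to 51.0 CPM in the DIO + DHA group, with 3 of 3 tested genes higher. The 9 macrophage genes summed to 572 to 646 CPM and 332 to 358 CPM, with 8 lower and 1 higher. Muscle and brown fat also express oxidative phosphorylation genes, and the part of these tissues in the results below was not tested. In whole liver, fewer cells of a type and less RNA per cell cannot be told apart.

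In the DIO + DHA group, 30 of the 89 tested members were higher and 0 were lower, at a p under 0.05 in the edgeR quasi-likelihood test, adjusted over all tested genes by Benjamini-Hochberg. The called changes ran from 13.2% to 33.4%. Over all 12412 tested genes, 7.89% were called higher and 7.28% lower, and among genes whose mean CPM reached 100, where 77 of the members lie, 21.9% were higher and 16.8% lower. All 30 called members were among those 77, which makes 38.96% of them. The median log2 fold change was 0.17 over the tested members, 0.18 over these 77 members, 0.06 over all genes of that level and 0.00 over all tested genes. Of the 89 members, 77 had a positive change and 12 a negative change, while 50.13% of all tested genes had a positive change. The groups did not overlap for 31 members, all higher in the DIO + DHA group, whereas 9.55% of all tested genes did not overlap and were higher and 8.88% did not overlap and were lower. At an unadjusted p under 0.05, 48 members passed, of which 1, Atp5if1, was lower. The share of all tested genes at that unadjusted threshold was not counted, so no excess is read from this number.

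The number of calls depended on the test. With the study's own criterion, a log-odds B above 0 in limma-voom, 8 members were called higher and 0 lower, and with an adjusted p under 0.05 in limma-voom, 32 were higher. Without DIO + DHA replicate 4, 19 members were called. Leaving out any other library gave 23 to 33 calls. The 7 members mt-Nd1, Ndufa5, Uqcrh, Cox5b, Atp5po, Atp5pd and Atp5mc1 passed in all 19 alternatives.

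**Figure D1:**
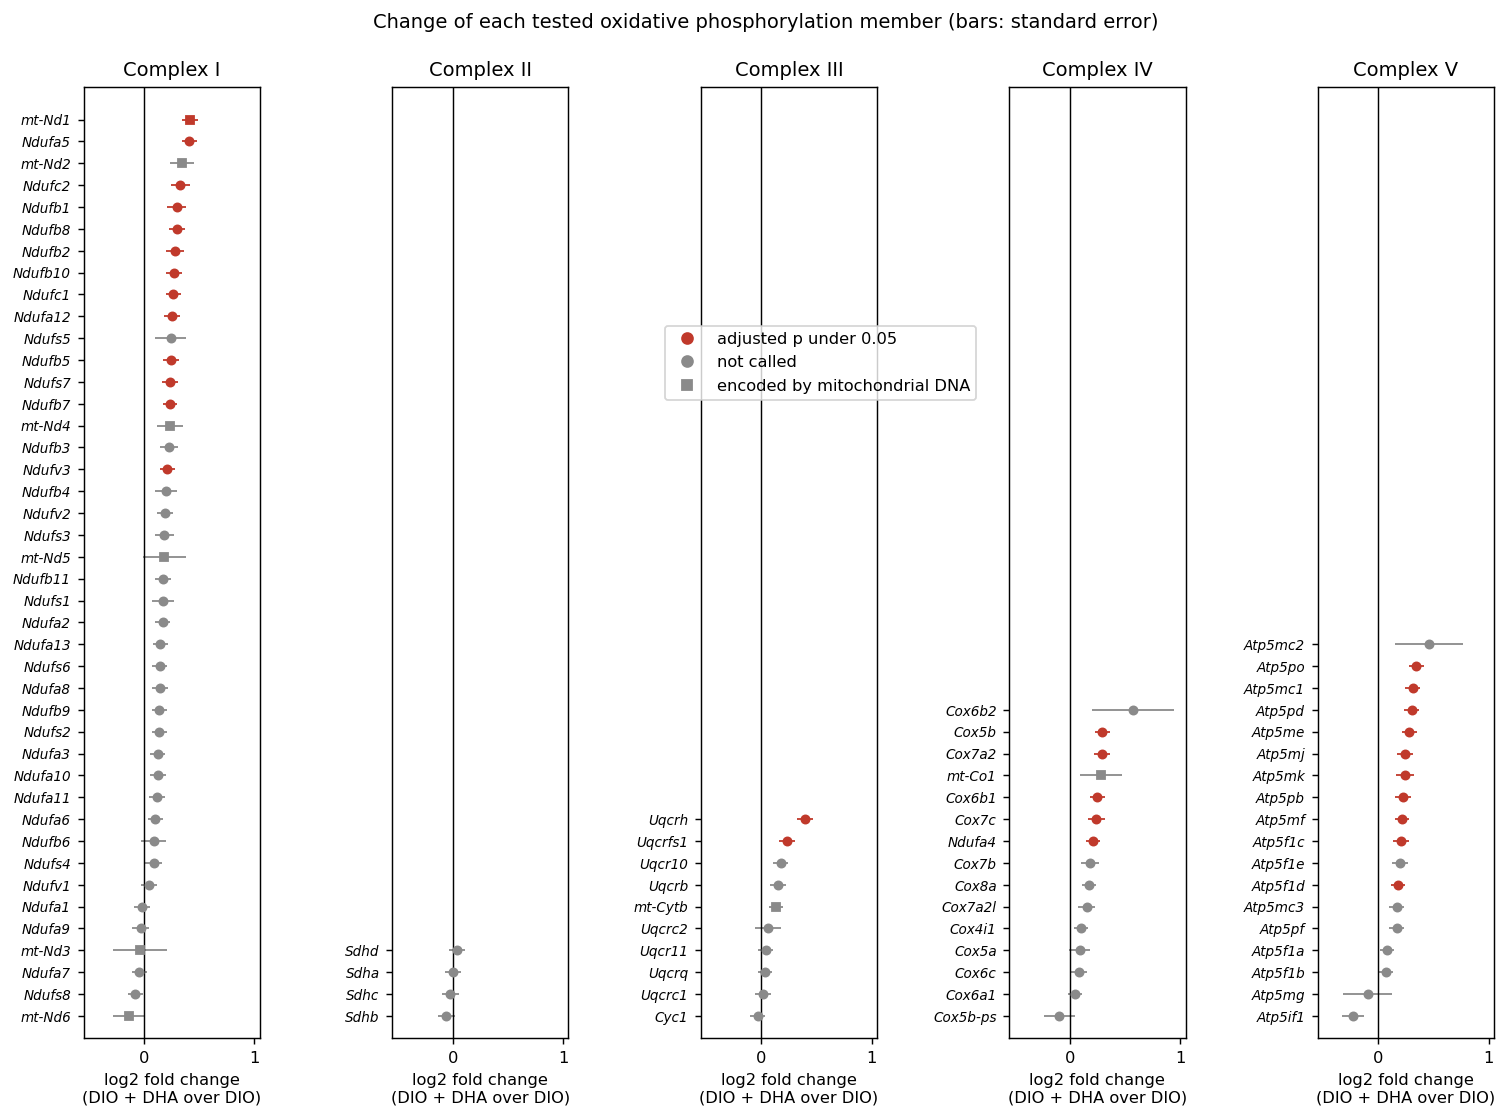
Log2 fold change (x axis, DIO + DHA over DIO, bars show the standard error) of the 89 tested members, sorted within each complex, with members at an adjusted p under 0.05 in red and members encoded by mitochondrial DNA as squares. Called members occur in complexes I, III, IV and V, all to the right of 0, and the 4 members of complex II lie around 0.

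Complex I, NADH dehydrogenase, takes electrons from NADH. Of its 42 tested members, 13 were higher in the DIO + DHA group and 0 lower, with a median log2 fold change of 0.18. The nuclear members gave 12 of 36 and the mitochondrially encoded members 1 of 6. The shares called higher were 30.95% of the complex, 33.33% of its nuclear members and 16.67% of its mitochondrially encoded members. Over all tested genes 7.89% were higher, and 21.9% of those whose mean CPM reached 100. The mitochondrially encoded share lay below 21.9%. The summed CPM of the 37 nuclear members was 10495, 10906 and 11526 in DIO replicates 1, 4 and 5 and 11723 to 12921 in the DIO + DHA libraries. The groups did not overlap, and the mean was 12.6% higher with DHA.

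Ndufa5, an accessory subunit of the arm that reaches into the matrix, had the smallest p of the nuclear members (ENSMUSG00000023089.13, GRCm39, chr6:24518665-24528012). It was at 435, 439 and 473 CPM in the DIO libraries and at 565, 558, 613, 622 and 625 CPM in the DIO + DHA libraries. All 5 DIO + DHA values exceeded the highest DIO value. The group means were 449 ± 20.8 CPM (SD, n = 3) and 597 ± 32.4 CPM (SD, n = 5). The log2 fold change was 0.41 (SE 0.07, adjusted p = 4.34e-06 in the edgeR quasi-likelihood test).

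Ndufb8 and Ndufb10 belong to the far end of the membrane arm. Ndufb8 (chr19:44537011-44543879) was at 268, 298 and 305 CPM in the DIO libraries and at 365, 319, 366, 340 and 395 CPM in the DIO + DHA libraries, a log2 fold change of 0.29 (SE 0.07, adjusted p = 0.00238). Ndufb10 (chr17:24941034-24943452) was at 445, 467 and 443 CPM and at 535, 481, 579, 568 and 561 CPM, a log2 fold change of 0.27 (SE 0.07, adjusted p = 0.00293). In both genes DIO + DHA replicate 2 was the library closest to the DIO group, without reaching it. Ndufc2, which takes part in anchoring the membrane arm (chr7:97049210-97057009), was at 118, 111 and 97.9 CPM and at 125, 136, 136, 125 and 155 CPM, a log2 fold change of 0.33 (SE 0.09, adjusted p = 0.00402). The other nuclear members that rose were Ndufc1, Ndufb7, Ndufa12, Ndufb1, Ndufb2, Ndufb5, Ndufs7 and Ndufv3, with log2 fold changes from 0.21 to 0.30. Of the exon bases of Ndufb1 and Ndufb5, 12.7% and 12.3% are shared with an antisense gene (Cpsf2 and Mrpl47), and 14.9% of those of Ndufb8 with an overlapping gene.

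By position in the enzyme, the nuclear members of the distal membrane arm gave 6 of 11 calls, and all 11 had a positive change, with a median log2 fold change of 0.23. The N module, which binds NADH, gave 2 of 10 (Ndufa12 and Ndufv3), the Q module, which hands electrons to coenzyme Q, gave 2 of 6 (Ndufa5 and Ndufs7), and the proximal membrane arm gave 2 of 9 (Ndufc1 and Ndufc2). Their medians were 0.15, 0.16 and 0.14. The shares called were 54.55% in the distal arm, 20% in the N module, 33.3% in the Q module and 22.2% in the proximal arm. Among all tested genes whose mean CPM reached 100, 21.9% were higher, so the counts of the N module and the proximal arm lay near that share. Of the 7 nuclear core subunits, which hold the flavin and the iron-sulfur clusters, 1 was called (14.3%), Ndufs7, and of the 29 tested accessory subunits, 11 were (37.9%). The differences between these positions were not tested. Ndufs7 carries an iron-sulfur cluster next to the coenzyme Q site and was at 268, 320 and 330 CPM in the DIO libraries and at 351, 366, 365, 409 and 325 CPM in the DIO + DHA libraries, where replicate 6 fell below the highest DIO library (log2 fold change 0.24, SE 0.07, adjusted p = 0.0217).

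Among the nuclear members of complex I that did not pass, Ndufb9 had the highest mean CPM. It was at 714, 831 and 907 CPM in the DIO libraries and at 858, 864, 913, 908 and 962 CPM in the DIO + DHA libraries, with overlapping groups and an adjusted p of 0.196. Ndufs8, Ndufa7, Ndufa9 and Ndufa1 had log2 fold changes of -0.08, -0.04, -0.03 and -0.02. Their adjusted p-values were 0.534 or higher. Ndufb11b had 0 counts in every library and was not tested.

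Complex II, succinate dehydrogenase, is shared with the citric acid cycle. None of its 4 members passed in either direction, at the adjusted threshold or at an unadjusted p under 0.05, and 0 passed in limma-voom or DESeq2. Sdha, the flavoprotein (chr13:74470373-74498399), was at 316, 334 and 303 CPM in the DIO libraries and at 323, 343, 319, 291 and 318 CPM in the DIO + DHA libraries. Sdhb, which holds the iron-sulfur clusters, was at 314, 311 and 383 CPM and at 325, 302, 336, 298 and 357 CPM. The groups overlapped in all 4 genes. The log2 fold changes were 0.00 for Sdha (95% interval -0.14 to 0.14), -0.06 for Sdhb (-0.21 to 0.09), -0.02 for Sdhc (-0.17 to 0.13) and 0.04 for Sdhd (-0.11 to 0.19). The membrane anchors Sdhc and Sdhd were at 165 ± 4.52 and 197 ± 11.8 CPM in the DIO group (SD, n = 3) and at 162 ± 10.5 and 203 ± 11.5 CPM in the DIO + DHA group (SD, n = 5). The intervals of all 4 end at or below 0.19, under the estimate of each called member of complexes I, III and IV. The summed CPM of the complex was 985 to 1041 in the DIO group and 956 to 1051 in the DIO + DHA group.

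**Figure D2:**
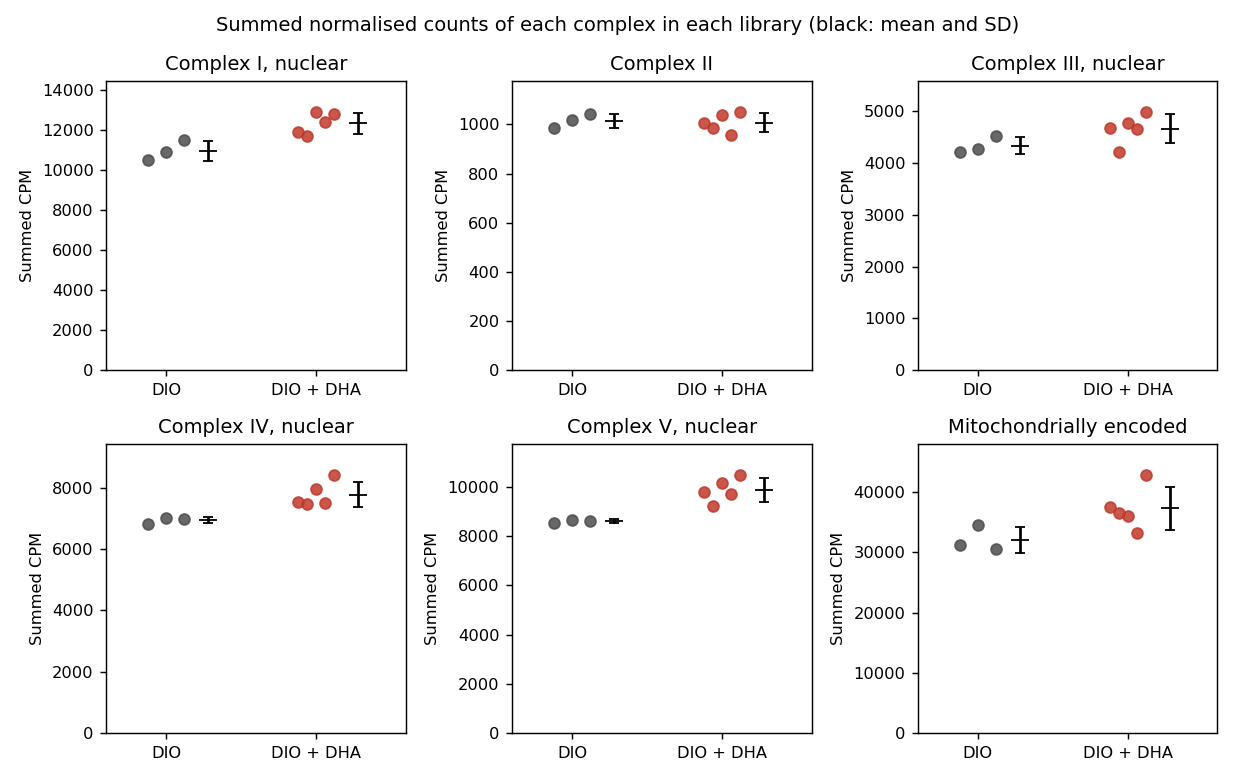
Summed CPM (y axis, from 0) of the members of each complex in each library, as points, with the group mean and SD in black. The nuclear members of complexes I, IV and V do not overlap between groups, and complexes II and III and the mitochondrially encoded members do.

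Complex III, the cytochrome bc1 complex, passes electrons from coenzyme Q to cytochrome c. Of its 10 members, 2 were higher, and the median log2 fold change was 0.10. The share called higher, 20%, lay near the 21.9% of all tested genes whose mean CPM reached 100, and 7.89% of all tested genes were higher. The count therefore says nothing particular to this complex. Uqcrh, the acidic hinge subunit that contacts cytochrome c1 (chr4:115924162-115932268), was at 356, 339 and 366 CPM in the DIO libraries and at 472, 399, 487, 440 and 525 CPM in the DIO + DHA libraries. The groups did not overlap, and the log2 fold change was 0.40 (SE 0.07, adjusted p = 3.61e-05). Uqcrfs1, the Rieske iron-sulfur protein (chr13:30724291-30729345), was at 310, 341 and 304 CPM and at 375, 361, 378, 323 and 436 CPM, a log2 fold change of 0.23 (SE 0.08, adjusted p = 0.0255). DIO + DHA replicate 5 lay within the DIO range for this gene, and the call was lost without any of 5 libraries, DIO replicates 1 and 5 and DIO + DHA replicates 1, 4 and 6, with an estimate from 0.17 to 0.30.

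The other members of complex III did not pass. The nuclear member with the highest mean CPM, Uqcrq, was at 1249, 1200 and 1318 CPM in the DIO libraries and at 1245, 1170, 1324, 1338 and 1340 CPM in the DIO + DHA libraries, with a log2 fold change of 0.03 (95% interval -0.10 to 0.16). The core proteins Uqcrc1 and Uqcrc2 had log2 fold changes of 0.02 and 0.06, and Cyc1, which is cytochrome c1, had -0.03. Uqcr10, Uqcrb and Uqcr11 had 0.17, 0.15 and 0.04, with adjusted p-values of 0.0733, 0.189 and 0.795.

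Complex IV, cytochrome c oxidase, reduces oxygen. Of its 15 tested members, 5 were higher and 0 lower, with a median log2 fold change of 0.18, which was 0.24 without DIO replicate 1. The share called higher was 33.33%, beside 7.89% of all tested genes and 21.9% of those whose mean CPM reached 100. Cox5b, a nuclear subunit on the matrix side (chr1:36730530-36732762), was at 354, 351 and 354 CPM in the DIO libraries and at 436, 429, 426, 403 and 471 CPM in the DIO + DHA libraries. The DIO libraries lay close together, with an SD of 1.43 CPM, and the log2 fold change was 0.30 (SE 0.07, adjusted p = 0.00104). Cox7a2, the widely expressed form of subunit 7a (chr9:79662643-79667160), was at 420, 356 and 413 CPM and at 469, 464, 512, 438 and 533 CPM, a log2 fold change of 0.29 (SE 0.07, adjusted p = 0.00232). Cox6b1, which faces the intermembrane space, Ndufa4, first described in complex I and since assigned to complex IV, and Cox7c rose by 18.8%, 15.7% and 18.1%. Of these 5 genes, the groups overlapped for Cox7c only.

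Cox4i1, Cox6a1 and Cox8a are the widely expressed forms of their subunits and did not pass. Cox4i1 had a log2 fold change of 0.10 (95% interval -0.02 to 0.23), and Cox6a1 one of 0.05 (-0.08 to 0.18). Cox8a was at 775, 849 and 786 CPM in the DIO libraries and at 875, 853, 931, 921 and 963 CPM in the DIO + DHA libraries, without overlap, and had an adjusted p of 0.0535. Cox7a2l, which takes part in joining complexes III and IV, had 0.15 (adjusted p = 0.211). Cox6b2, a form known from testis, had means of 1.94 ± 0.434 CPM without DHA (SD, n = 3) and 2.74 ± 0.405 CPM with DHA (SD, n = 5), and the groups overlapped. Cox5b-ps is annotated as protein-coding, and 42.8% of the 80-base windows in the last 497 bases of its transcript have an exact copy elsewhere in the genome. It had a log2 fold change of -0.10 and an adjusted p of 0.746. Cox4i2 had at most 2 counts in a library, and Cox7b2, Cox8c and Ndufa4l2 had 0 in every library.

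The 3 isoforms that the rule left out moved by far more than the members. Cox6a2 was at 2.81, 2.88 and 3.19 CPM in the DIO libraries and at 76.9 to 86.7 CPM in the DIO + DHA libraries. Cox8b was at 1.62 to 4.49 CPM and at 52.6 to 72.3 CPM. Cox7a1 was at 18.8 to 22.9 CPM and at 53.8 to 64.5 CPM. Their log2 fold changes were 4.75, 4.76 and 1.49. The same contrast between isoforms stood in the carriers that exchange ADP for ATP across the inner membrane: Slc25a4, the muscle form, was at 20.8 to 26.2 CPM and at 176 to 201 CPM, while Slc25a5, a widely expressed form, was at 326 to 337 CPM and at 288 to 325 CPM (log2 fold change -0.12, adjusted p = 0.28). The groups of Slc25a5 did not overlap, though narrowly, with 325.9 CPM in the lowest DIO library and 325.4 CPM in the highest DIO + DHA library. These 4 muscle or brown fat genes were higher in the same 5 libraries as the marker lists of those tissues, and Cox8b and Cox7a1 are also on the brown fat list.

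**Figure D3:**
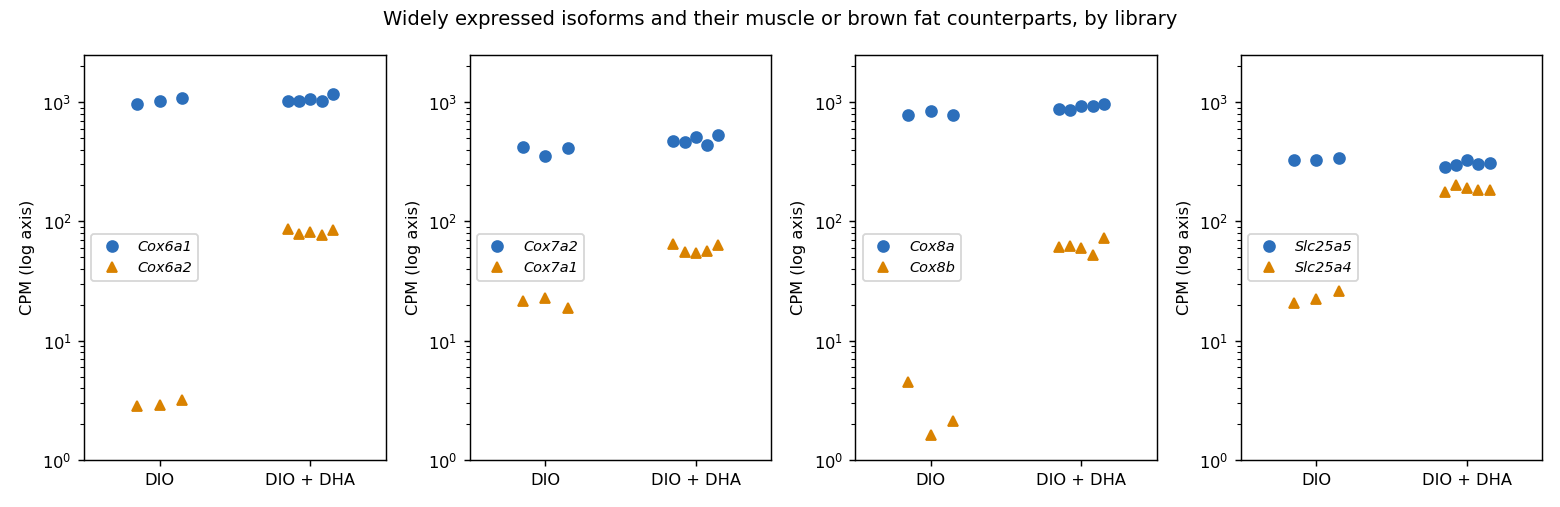
CPM (y axis, log scale) of 4 pairs of genes in each library, with the widely expressed form as blue circles and the muscle or brown fat form as orange triangles. Each orange gene is higher in all 5 DIO + DHA libraries than in all 3 DIO libraries, while the blue genes stay within a narrow band, with a rise of 22.3% in Cox7a2.

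Complex V is the ATP synthase. In the main fit it had the largest share of calls, 10 of 18 tested members (55.56%), and a median log2 fold change of 0.21. Over all tested genes 7.89% were higher, and 21.9% of those whose mean CPM reached 100. The differences between complexes were not tested, and the ranking depended on the test. With an adjusted p under 0.05 in limma-voom, complex IV gained Cox8a and mt-Co1, and complex V lost Atp5mk and Atp5f1c. The summed CPM of its 19 nuclear members was 8545, 8668 and 8631 in the DIO libraries and 9224 to 10498 in the DIO + DHA libraries, without overlap and 14.6% higher on average. The peripheral stalk, which keeps the catalytic head from turning, gave 3 of 4 tested members, the nuclear members of the membrane part gave 5 of 8, and the F1 head with its central stalk gave 2 of 5. These shares were 75%, 62.5% and 40%, beside 21.9% of all tested genes whose mean CPM reached 100. The differences between these parts were not tested.

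Atp5po, the OSCP subunit at the top of the peripheral stalk (chr16:91722102-91728575), was at 371, 374 and 382 CPM in the DIO libraries and at 459, 437, 477, 481 and 527 CPM in the DIO + DHA libraries. The groups did not overlap, and the log2 fold change was 0.34 (SE 0.07, adjusted p = 0.000141). Of its exon bases, 35.6% are shared with an antisense gene, and counting did not use strand. A second identifier of Atp5po, whose exons all overlap other genes, had 0 counts in every library. Atp5pd, subunit d of the same stalk (chr11:115306515-115310788), was at 769, 811 and 768 CPM and at 975, 880, 974, 937 and 1056 CPM, a log2 fold change of 0.30 (SE 0.07, adjusted p = 0.000437). Atp5pb, subunit b, had 0.22 (adjusted p = 0.0232), and Atp5pf, the fourth tested member of the stalk, had 0.17 and an adjusted p of 0.0923.

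In the membrane part, the c subunit forms the ring that turns with the proton flow and is encoded by 3 nuclear genes. Atp5mc1 (chr11:95959678-95966496) was at 328, 367 and 370 CPM in the DIO libraries and at 446, 392.3, 462, 446 and 461 CPM in the DIO + DHA libraries, a log2 fold change of 0.31 (SE 0.07, adjusted p = 0.000763). Atp5mc3 had means of 739 ± 52.5 CPM without DHA (SD, n = 3) and 828 ± 70.0 CPM with DHA (SD, n = 5), and an adjusted p of 0.0978. Atp5mc2 was counted at 1.68 to 10.7 CPM, and every 80-base window in its last 500 transcript bases has an exact copy elsewhere in the genome. Atp5me, a small subunit of the dimer interface (chr5:108581110-108582314), was at 495, 515 and 469 CPM and at 547, 564, 598, 636 and 652 CPM, a log2 fold change of 0.28 (SE 0.07, adjusted p = 0.00189). Atp5mj, Atp5mf and Atp5mk rose by 18.3%, 15.9% and 17.9%, and Atp5mg, counted at 5.35 to 7.63 CPM, did not pass.

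In the F1 head, the catalytic subunits did not pass. Atp5f1b, the beta subunit, was at 669, 639 and 703 CPM in the DIO libraries and at 720, 697, 722, 670 and 707 CPM in the DIO + DHA libraries, a log2 fold change of 0.07 (95% interval -0.06 to 0.20). Atp5f1a, the alpha subunit, had 0.08 (-0.05 to 0.21). The central stalk genes Atp5f1c and Atp5f1d rose, by 15.5% and 13.2%, with adjusted p-values of 0.0423 and 0.0427, and Atp5f1e had an adjusted p of 0.0681. Of the 30 called members, Atp5f1c was called in the fewest alternatives, 6 of 19. Atp5mk, Atp5f1d and Atp5pb were called in 9, 10 and 11 of them. Atp5if1, the inhibitor of ATP hydrolysis by the synthase, was at 45.5, 53.4 and 55.4 CPM in the DIO libraries and at 43.9, 40.1, 49.5, 45.3 and 44.7 CPM in the DIO + DHA libraries. The groups overlapped, and the log2 fold change of -0.23 had an adjusted p of 0.125, with 69.6% of its exon bases shared with the antisense gene Gm12999.

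**Figure D4:**
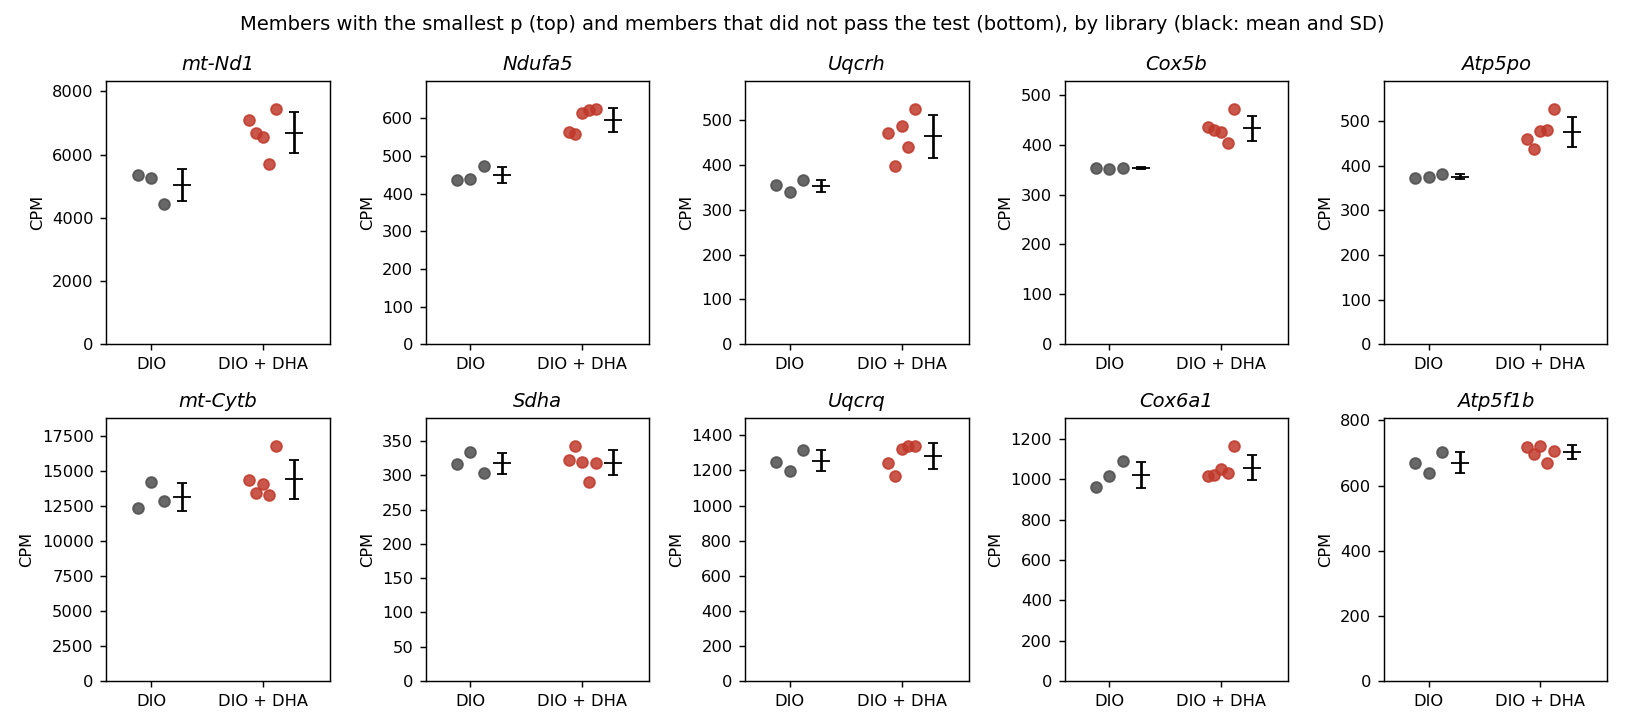
CPM (y axis, from 0) in each library for the called member with the smallest p of each group of members (top) and for members that did not pass (bottom), with the mean and SD in black. The top 5 genes do not overlap between groups, and the bottom 5 do.

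The 13 mitochondrially encoded members are cut from long transcripts of the circular genome. Of these, 8 were tested, 1 was higher and 0 were lower, with a median log2 fold change of 0.21. The share called higher, 1 of 8, lay between 7.89%, over all tested genes, and 21.9%, over those whose mean CPM reached 100. The count therefore says nothing particular to these genes. mt-Nd1, the membrane subunit of complex I next to the coenzyme Q site (chrM:2751-3707), was at 5357, 5269 and 4439 CPM in the DIO libraries and at 7093, 6695, 6546, 5711 and 7432 CPM in the DIO + DHA libraries. The groups did not overlap, and the log2 fold change was 0.42 (SE 0.07, adjusted p = 3.62e-05). mt-Nd2 was at 2042, 2132 and 1537 CPM and at 2524, 2692, 2147, 2173 and 2517 CPM, also without overlap, and missed the threshold (log2 fold change 0.34, SE 0.11, adjusted p = 0.0635). It was called higher in 10 of the 19 alternatives, among them both limma-voom criteria, the DESeq2 Wald test and the replicate block.

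The other mitochondrially encoded members overlapped between groups. mt-Cytb of complex III was at 12352, 14252 and 12891 CPM in the DIO libraries and at 14412, 13436, 14129, 13304 and 16819 CPM in the DIO + DHA libraries (log2 fold change 0.13, adjusted p = 0.187). mt-Nd4, mt-Nd5 and mt-Co1 had log2 fold changes of 0.23, 0.18 and 0.29, with standard errors of 0.12, 0.20 and 0.19. Among the 19 alternatives, mt-Nd4 was called higher in 3 and mt-Co1 in 1, and both passed with the adjusted p of limma-voom. mt-Nd6, which alone among these genes is encoded on the light strand, had -0.14 (SE 0.14), and mt-Nd3, counted at 4.44 to 9.59 CPM, had -0.04 (SE 0.24). Counting did not use strand, so the counts of mt-Nd6 can include reads of the opposite strand. Its change cannot be assigned to this gene alone. The summed CPM of all 13 was 30583 to 34567 in the DIO group and 33278 to 42924 in the DIO + DHA group, where replicate 6 was the highest. Counts of the mitochondrial chromosome made up 3.20% to 3.63% of the DIO libraries and 3.57% to 4.34% of the DIO + DHA libraries. Of the mitochondrial ribosomal RNAs, mt-Rnr2 was at 686 to 801 CPM and at 986 to 1195 CPM (log2 fold change 0.57, adjusted p = 9.2e-10), and mt-Rnr1 had a log2 fold change of 0.15 (adjusted p = 0.194).

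The remaining 5 mitochondrially encoded members, mt-Co2, mt-Atp8, mt-Atp6, mt-Co3 and mt-Nd4l, had 10 counts between them in the 8 libraries, at most 4 in any library, and were not tested. On the chromosome they lie in a row, with mt-Nd3 between mt-Co3 and mt-Nd4l. A stretch of chromosome 1 of GRCm39 (chr1:24650616-24655269, minus strand) matches positions 6390 to 11042 of the mitochondrial chromosome over 4654 aligned bases, with 2 mismatches and 1 gap, an identity of 99.9%. All 80-base windows of these 5 genes, the length of the read that was aligned, have an exact copy there, and alignments that were not unique were not counted. The share of windows with a nuclear copy was 98.9% for mt-Nd3, 61.4% for mt-Nd4 and 37.6% for mt-Co1, and it was 0 for mt-Nd1, mt-Nd6 and mt-Cytb, which had 38614 to 460797 counts. Levels and changes of the 5 genes cannot be read from these tables, and those of mt-Nd3, mt-Nd4 and mt-Co1 rest on part of each gene. The stretch in which the reading frames of mt-Atp8 and mt-Atp6 overlap shows the copy. It is shown with 10 bases on either side (GRCm39, chrM:7917-7979, plus strand), with the 43 shared bases in capitals, and the same 63 bases stand at chr1:24653680-24653742 on the minus strand.
mt-Atp8 and mt-Atp6: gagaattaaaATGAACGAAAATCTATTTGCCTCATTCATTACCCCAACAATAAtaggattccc

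**Figure D5:**
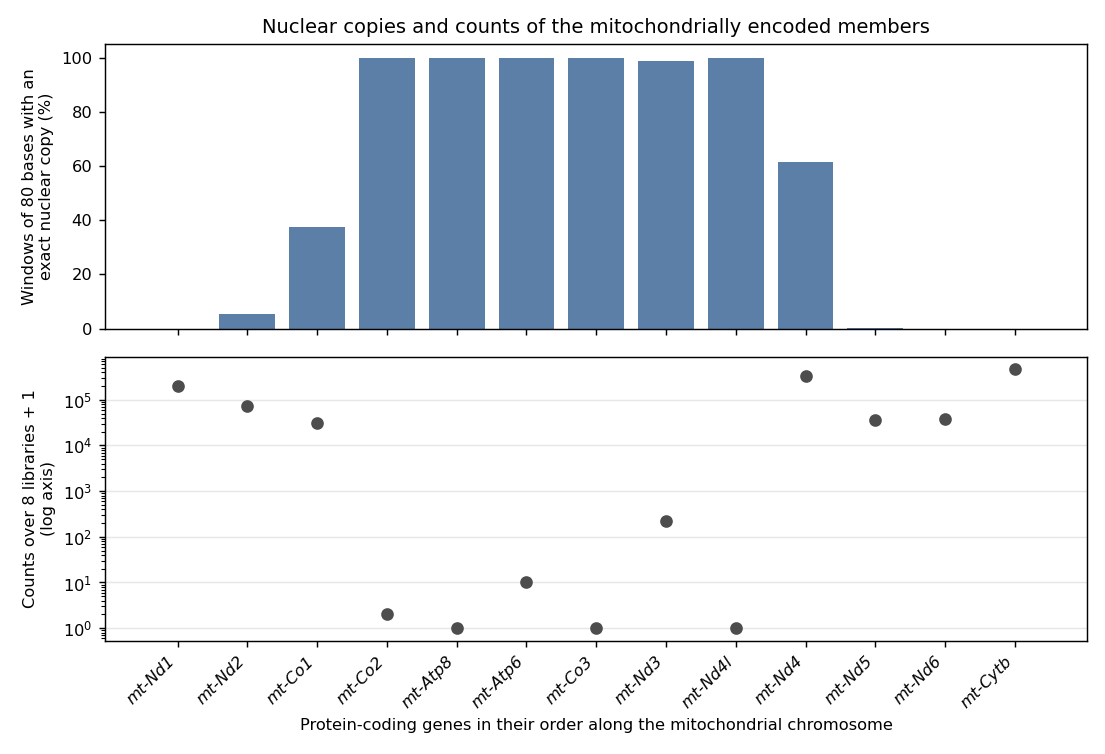
For the 13 mitochondrially encoded members in their order on the chromosome, the share of 80-base windows with an exact copy in the nuclear genome (top, %) and the counts over the 8 libraries plus 1 (bottom, log axis). The 5 genes at 100% had 0 to 9 counts over all libraries.

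Nuclear members were also searched for copies. Whether reads were lost to copies was not tested, for nuclear or for mitochondrially encoded members. In the last 500 transcript bases (fewer where the transcript is shorter), 67 of the 87 nuclear members had no 80-base window with an exact copy elsewhere, and 7 had a copy for over 50% of the windows: Atp5mc2, Atp5mc1, Cox7c, Ndufs5, Atp5mg, Ndufs3 and Atp5pd. These were chosen for this property after the counts were seen. Of these 7, 3 were called higher (Atp5mc1, Cox7c and Atp5pd), and of the 62 tested members without a copied window, 21 were.

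Assembly factors build the complexes and do not stay in them. Of 58 tested assembly factors, 6 were higher and 1 was lower, with a median log2 fold change of 0.09. The share called higher, 10.3%, lay near the 7.89% of all tested genes, so the count says nothing particular to the list. The higher genes were Ndufaf3 of complex I (0.45), Sdhaf1 of complex II (0.54), Uqcc3 of complex III (0.31), the copper chaperones Cox17 and Cox19 of complex IV (0.35 and 0.40) and Tmem70 of complex V (0.29), as log2 fold changes. Sdhaf1, which helps to insert the iron-sulfur clusters of Sdhb, was at 16.8, 26.1 and 25.7 CPM in the DIO libraries and at 38.99, 30.4, 31.0, 35.3 and 38.4 CPM in the DIO + DHA libraries. It did not overlap between groups, while the subunits of complex II did. Coa7 of complex IV fell by 0.36 on the log2 scale, with means of 46.4 ± 2.18 CPM without DHA (SD, n = 3) and 35.2 ± 4.61 CPM with DHA (SD, n = 5).

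Of the 17 tested genes of electron carriers and coenzyme Q synthesis, 5 were higher and 1 was lower. The share called higher was 29.4%, while over all tested genes 7.89% were higher and 7.28% lower. Among tested genes whose mean CPM reached 100, as did that of Cycs, Ndufab1 and Coq8a, 21.9% were higher. Cycs, cytochrome c, which shuttles electrons between complexes III and IV, was at 104, 115 and 99.3 CPM in the DIO libraries and at 153, 170, 168, 142 and 170 CPM in the DIO + DHA libraries. The groups were far apart relative to their spread (log2 fold change 0.59, SE 0.08, adjusted p = 1.03e-07), and the estimate was above that of each of the 30 called members. Ndufab1, the mitochondrial acyl carrier protein, which also sits in complex I and lies outside the naming rule, had 0.47 (SE 0.08, adjusted p = 5.27e-06). Coq7 and Coq8a, which act in coenzyme Q synthesis, had 0.43 and 0.41, and Etfa, which feeds electrons from fatty acid oxidation to coenzyme Q, had 0.22. Coq10b, a coenzyme Q binding protein, fell by 0.65 on the log2 scale.

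Of the 7 tested carriers of nucleotides, phosphate and protons, 3 were higher and 1 was lower. The share called higher was 42.9%, beside 7.89% of all tested genes. Of the 3, Slc25a4 is the muscle form and Ucp1 is also on the brown fat list. The share is therefore not read as a result about the carriers. Slc25a3, which brings phosphate to the ATP synthase, was at 223, 240 and 243 CPM in the DIO libraries and at 263, 285, 275, 260 and 328 CPM in the DIO + DHA libraries (log2 fold change 0.25, adjusted p = 0.0127). The other higher genes were Slc25a4, above, and Ucp1, the uncoupling protein of brown fat, which had 0 counts over the DIO group and 89 over the DIO + DHA group. Against a floor of 3 counts over the DIO group, Ucp1 was at least 19.3-fold higher. Slc25a23, an ATP-Mg and phosphate carrier, fell by 0.27 on the log2 scale (adjusted p = 0.0491).

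Of 14 regulators of mitochondrial biogenesis, 2 were higher and 0 lower, a share of 14.3% higher beside 7.89% of all tested genes. Ppargc1a, the coactivator PGC-1 alpha, was at 6.73, 7.92 and 9.21 CPM in the DIO libraries and at 33.5, 41.8, 36.7, 31.1 and 30.1 CPM in the DIO + DHA libraries, a log2 fold change of 2.04 (SE 0.16, adjusted p = 7.14e-16). Perm1, a muscle regulator, had 0 counts over the DIO group and 40 over the DIO + DHA group, at least 8.68-fold higher against the same floor. Muscle and brown fat express both genes, and the part of those tissues in these changes was not tested. The log2 fold changes of Ppargc1b, Esrra, Nrf1 and Gabpa, transcription factors or coactivators of oxidative phosphorylation genes, were 0.04, -0.31, 0.15 and -0.31, with overlapping groups and adjusted p-values of 0.318 or higher. Of 25 tested genes of mitochondrial DNA maintenance and expression, 2 were higher and 0 lower, a share of 8% beside 7.89% of all tested genes. Hsd17b10, a subunit of mitochondrial RNase P, was at 356, 369 and 404 CPM and at 594, 594, 638, 660 and 641 CPM (log2 fold change 0.73, adjusted p = 7.47e-13). Tefm, a mitochondrial transcription elongation factor, had 0.51 (adjusted p = 0.0443), and Tfam, which packages mitochondrial DNA and starts its transcription, had 0.32 without overlap (adjusted p = 0.0728).

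Promoters of the members were searched on both strands, from 250 bases before to 50 bases after the annotated start, for the cores of 3 motifs of known regulators: CGCATGCG of NRF1, CCGGAAG of the ETS family with GABPA, and AAGGTCA of the ERR family. The NRF1 core stood in 6 of the 87 nuclear members (6.90%) against 2.59% of 21757 protein-coding promoters. The ETS core stood in 13 (14.9%) against 10.3%, and the ERR core in 8 (9.20%) against 4.48%. Over the promoters of the 11260 tested protein-coding genes, the shares were 3.35% for NRF1, 15.4% for ETS and 3.96% for ERR, so the ETS core was not more frequent among the members than among tested genes. Among the 29 nuclear members called higher, each core stood in 1 promoter: Atp5me for NRF1, Uqcrh for ETS and Ndufb2 for ERR. Among the 52 tested nuclear members that were not called, they stood in 5, 12 and 7. These matches are a description of the letters in these windows. Sequences of 60 bases from GRCm39 around 2 of the matches in called members, which end no more than 20 bases after the start, are shown with the motif in capitals. The Ndufb2 stretch lies at chr6:39569291-39569350 on the plus strand and holds the ERR core. The Atp5me stretch lies at chr5:108582295-108582354 on the minus strand and holds the NRF1 core.
Ndufb2: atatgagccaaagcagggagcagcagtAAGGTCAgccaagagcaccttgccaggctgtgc
Atp5me: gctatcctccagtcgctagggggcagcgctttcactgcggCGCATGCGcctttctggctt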

How the data were processed

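Liver poly(A) RNA of 3 DIO and 5 DIO + DHA mice was sequenced by an adaptation of SCRB-seq with unique molecular identifiers. After trimming, the authors mapped the reads with STAR 2.7.9a (genome GRCm39) and counted them on GENCODE mouse release 33 exons with featureCounts 1.6.0, without options for strand, multi-mapping or overlap. They deposited whole-number counts per gene, not normalized. Whether identifiers were collapsed is not stated, so bounds on counts cover counting error only. The 8 tables of 56884 genes were joined by identifier and named with GENCODE release 39 (56323 identifiers found). Groups and replicate numbers came from the titles.

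Genes with a count under 5 in over 50% of the libraries of each group were left out, and 12412 were tested. After TMM scaling, edgeR 4.0.16 (R 4.3.3) gave robust quasi-likelihood tests, with p-values adjusted by Benjamini-Hochberg over all tested genes and called under 0.05. Intervals are 95% intervals of the log2 fold change. On simulated counts for 5 against 3 libraries (12042 genes), 89.5% of log2 changes of 1 and 49.5% of changes of 0.5 were recovered, with 12 false calls among 153. All called members changed by less than 0.5. Each pair of libraries differed by more than counting error (chi-square per degree of freedom of 1.97 to 5.51 within groups). All libraries come from different mice.

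Alternatives were DESeq2 size factors, library size, TMM without mitochondrial genes or without genes of other tissues, limma-voom (limma 3.58.1, prior proportion 0.01 for B), the Wald test of DESeq2 1.42.0, other filters, the replicate number as a block and leaving out each library. Copies were searched with BLAST+ 2.17.0 in GRCm39 at an identity of at least 95%, and starts came from the canonical transcripts of GENCODE release 39. Named genes are the 4 called members with the smallest p and the member with the highest mean CPM of each complex, nuclear and mitochondrial apart, all of complex II, all mitochondrially encoded members, isoforms, Atp5if1, listed genes that were called, and Ppargc1b, Esrra, Nrf1, Gabpa, Tfam and Cycs. The other named members were added after their values were seen. The members and lists were chosen with earlier results of these data known. The assembly factor Coa1 and Fastkd4 had no row under those names. Protein, enzyme activity and mitochondrial content were not analysed here.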

Additional observations from a re-analysis of the deposited data

Results flagged for a closer look

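In groups of 5, a library was marked where its gap to the nearest other library exceeded 0.71 of the group's range. Among 52 values tested in the DIO + DHA group, 3 were marked, where chance marks about 1 in 20. Atp5mc1 stood lowest in DIO + DHA replicate 2, at 392.3 CPM against 446 CPM in the next library, which is still above the DIO libraries. Cox6a1 stood highest in replicate 6, at 1167 CPM against 1054 CPM. The summed CPM of complex IV also stood highest in replicate 6, at 9421 CPM against 8781 CPM, and the groups do not overlap with or without that library.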

How the results depend on the processing

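No member was called lower under any of the 19 alternatives, and no named gene reversed its direction with a call. Of 1059 values of 56 named genes under the alternatives, 959 kept their side of the threshold without a called reversal, 80 lost the call and 20 gained it. Uncalled genes with changes near 0 could change sign within the 959, as Sdhb did (-0.11 to 0.06 when 1 library was left out). Of 589 further values, nearly all of them counts of calls by complex or by list, 75 moved by more than a set factor or to or from 0. Of the 30 higher members, 11 were called without each library in turn and 28 in at least 10 alternatives. The median of the members lay between 0.14 and 0.21 when 1 library was left out, and between 0.15 and 0.18 under the other alternatives. At B above 0 in limma-voom, 8 members were higher, and 463 genes in all were higher and 396 lower. The Wald test of DESeq2 gave 24 higher members and 601 lower genes in all. Without 1 library, the higher members numbered 19 (without DIO + DHA replicate 4) to 33, all higher genes 788 to 966, all lower genes 642 to 903, and the median log2 fold change of complex IV lay between 0.15 and 0.24. Without 1 library, the median of complex II lay between -0.03 and 0.02, of complex III between 0.05 and 0.14, of complex I between 0.15 and 0.22, of complex V between 0.17 and 0.23 and of the mitochondrially encoded members between 0.16 and 0.27.

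With the replicate number as a block, 19 members were higher and 0 lower. The deviations of same-numbered libraries correlated at -0.01 for each of the numbers 1, 4 and 5, so no pattern shared by number was seen. With so few numbers in both groups this cannot settle whether the numbers mark a pairing, and the cause of the lower count was not tested. The number of DIO mice (3), the depth of DIO replicate 1 and copies of some genes elsewhere in the genome limit the precision.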
